A study of Homo sapiens with 12 samples.

Results

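Actinonin given alone was compared with actinonin given together with chloramphenicol in a genome-wide knockout screen, across all 19112 genes of the deposited gene table. HEK293 cells, a human embryonic kidney line, carried the Brunello library of CRISPR guides, delivered so that most infected cells took up a single guide, and grew for 15 days in medium with glutamine, pyruvate and uridine. The groups were the ethanol solvent (EtOH), 15 µM actinonin (ACT), 5 µg/mL chloramphenicol (CAP) and both drugs at those doses (ACT CAP), each with 3 independent replicates, 12 samples in all. Of these, 6 samples, 3 with ACT and 3 with ACT CAP, enter the comparison described here. The transduced cells were selected and expanded as a pool before being split into the groups. No gene was left out, and 19103 of the 19112 were targeted by 4 guides. The table holds a single fitted value per gene and group, so no value of a single replicate, guide or read count was used here.

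Mitochondria translate the few proteins encoded by their own genome on a dedicated ribosome, and these proteins are inserted into the inner membrane as cores of respiratory complexes I, III, IV and ATP synthase. Each begins with a formylated methionine, whose formyl group is removed by peptide deformylase (PDF), the enzyme that actinonin inhibits. Chloramphenicol blocks peptide bond formation on the large mitochondrial ribosomal subunit. The comparison of ACT with ACT CAP asks which gene losses weigh differently on growth when faulty mitochondrial proteins are made than when little is made at all, with ACT present on both sides.

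For each gene and group the table gives a beta, the fitted change in how abundant its guides were, relative to a reference left unnamed there. A negative beta means that the gene's guides became rarer relative to that reference. The median beta of all genes was itself below 0, from -0.157 in EtOH to -0.133 in ACT CAP. A beta slightly below 0 is thus near the level of all genes. The difference described is beta in ACT minus beta in ACT CAP, so a gene called higher was less depleted, or more enriched, with ACT alone. This difference was divided by its joined standard error, centred on the median of all genes and scaled by their spread, which gives the scaled difference in units of the spread of all genes. A gene was called at an adjusted p under 0.05 (2-sided normal p of the scaled difference, Benjamini-Hochberg adjustment across all 19112 genes). Betas below are given for the 4 groups in turn, and the standard error of the difference is that of the fit, whereas 95% intervals of a difference use the spread of all genes and are centred on their median. Of the 19112 genes, 102 were called higher in ACT (0.534%) and 55 lower (0.288%), 157 in all (0.821%). The smallest scaled difference that passed was 3.53 in size, with HAS3 just inside at 3.53 and NDRG4 and IL17C just outside at 3.53 each. MEPCE, at -3.54, was just inside on the lower side. The spread of all genes was 0.742 of what the fit's standard errors predict, and against a standard normal curve without that scaling 11 genes were called higher and 6 lower.

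Losses of genes that build and run the mitochondrial ribosome were less harmful, or of benefit, with ACT alone, and losses of genes that build respiratory complexes I and IV were more harmful. Of 175 measured genes in 9 lists of mitochondrial translation, 29 rose (16.6%), 1 fell and 145 did not pass. Their median scaled difference was 1.73, against 0.00 over all genes. Of 154 measured genes in 8 lists of oxidative phosphorylation, 1 rose, 26 fell (16.9%) and 127 did not pass, with a median of -1.82. COX14, the translation gene that fell, stands in both sets and is 1 of the 26. The lists were written with earlier results of these data known, so their counts are descriptions. Against the standard normal curve without scaling, 6 translation genes rose and 2 oxidative phosphorylation genes fell, and at an adjusted p of 0.01 on the scaled difference 18 rose and 17 fell.

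**Figure D1:**
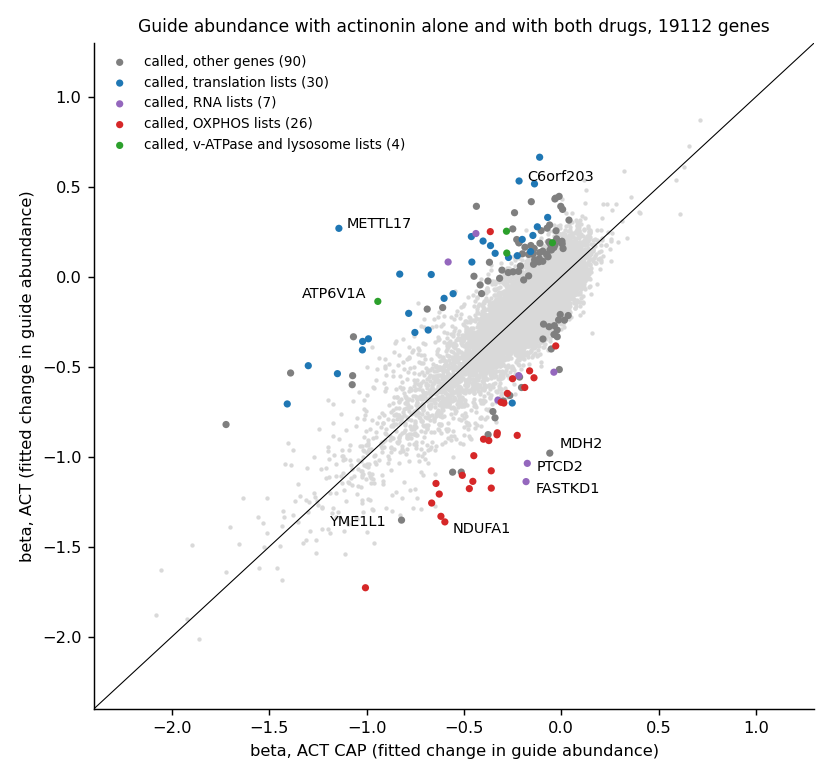
Each point is a gene, with its beta in ACT CAP on the horizontal axis and in ACT on the vertical axis, and the line marks equal values. Coloured points are the 157 genes called in ACT minus ACT CAP, and a gene of several lists takes the colour of the first in the key. Called genes of the translation lists lie above the line except COX14, and those of the oxidative phosphorylation lists below it except COX5A.

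Genes of the mitochondrial ribosome itself lay almost all on 1 side. Of 51 large subunit proteins 10 rose and none fell, and 46 had a scaled difference above 0 (median 1.94). Of 31 small subunit proteins 3 rose and none fell, with 29 above 0 (median 1.80). The median beta of the 82 proteins was -0.712 in EtOH, -0.574 in CAP, -0.388 in ACT and -0.633 in ACT CAP, so that their loss cost growth in every group and least in ACT. MRPL9, a large subunit protein, had betas of -0.493 in EtOH, -0.436 in CAP, 0.130 in ACT and -0.340 in ACT CAP, a difference of 0.470 with a standard error of 0.118 (scaled difference 5.39). MRPL1, also of the large subunit, had betas of -0.683 in EtOH, -0.191 in CAP, 0.516 in ACT and -0.138 in ACT CAP (difference 0.653, standard error 0.164, scaled 5.38). ACT stood above the other 3 groups for both. MRPL17 was depleted everywhere, at -1.29 in EtOH, -0.848 in CAP, -0.494 in ACT and -1.30 in ACT CAP, and its scaled difference was 5.20. The other large subunit proteins that rose were MRPL27 (4.01), MRPL41 (3.93), MRPL34 (3.90), MRPL44 (3.86), MRPL50 (3.61), MRPL32 (3.55) and MRPL52 (3.55). Small subunit proteins that rose were PTCD3 (4.29), MRPS31 (3.76) and MRPS33 (3.64). The lowest members were MRPL39 at -1.19 and MRPS24 at -0.44, neither of which passed.

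Factors that assemble the ribosome held the highest value of the screen. METTL17, which binds the small subunit while it is built, had betas of -1.01 in EtOH, -0.666 in CAP, 0.269 in ACT and -1.14 in ACT CAP. Its guides were thus lost in 3 groups and gained in ACT, a difference of 1.41 with a standard error of 0.217 (95% interval 1.10 to 1.73, scaled 8.77). The GTPases GTPBP8 and NOA1 followed. GTPBP8 had betas of -0.807 in EtOH, -0.585 in CAP, 0.0145 in ACT and -0.830 in ACT CAP (scaled 6.89), and NOA1, which also acts in small subunit assembly, of -0.375 in EtOH, -0.162 in CAP, 0.664 in ACT and -0.111 in ACT CAP (scaled 5.40). The RNA helicase DDX28, which acts on the large subunit, rose at 3.87, a call that did not hold once its chromosome was centred (2.47). With these, 4 of 21 assembly factors rose, none fell, and 20 lay above 0 (median 2.47), the exception being WBSCR16 at -0.10. GTPBP6, a further mitochondrial ribosome GTPase that stood in no list, was also among the 20 highest (betas -1.31 in EtOH, -0.829 in CAP, -0.535 in ACT and -1.39 in ACT CAP, scaled 5.71). Of 10 enzymes that modify ribosomal RNA 1 rose, the pseudouridine synthase RPUSD3, with betas of -0.811 in EtOH, -0.638 in CAP, 0.0123 in ACT and -0.668 in ACT CAP (scaled 5.58), and METTL15 was lowest at -1.65.

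Proteins that end translation were set apart from each other by their values. C6orf203, an RNA-binding protein of ribosome rescue, had betas of -0.428 in EtOH, -0.307 in CAP, 0.532 in ACT and -0.217 in ACT CAP (difference 0.749, standard error 0.140, scaled 7.22). HEMK1, the methyltransferase that modifies release factors, had betas of -0.269 in EtOH, -0.212 in CAP, 0.207 in ACT and -0.201 in ACT CAP (scaled 6.58), and C12orf65, which frees stalled chains, of -0.611 in EtOH, -0.477 in CAP, 0.223 in ACT and -0.462 in ACT CAP (scaled 4.94). In all 3, beta lay below the median of all genes in EtOH, CAP and ACT CAP and above 0 in ACT. The peptidyl-tRNA hydrolase ICT1, a component of the large subunit, had the same order, at -0.584 in EtOH, -0.386 in CAP, 0.258 in ACT and -0.179 in ACT CAP, and missed the threshold at 3.40. The release factor MTRF1L had a scaled difference of 0.49 (beta difference 0.0491, 95% interval -0.152 to 0.254), and its relative MTRF1 lay on the other side of 0 at -3.08, with betas of -0.257 in EtOH, -0.257 in CAP, -0.411 in ACT and -0.155 in ACT CAP. Neither passed.

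Enzymes at the start of the peptide chain also differed among themselves. METAP1D, the mitochondrial aminopeptidase that removes the first methionine once the formyl group is gone, had betas of -0.106 in EtOH, -0.0832 in CAP, 0.277 in ACT and -0.123 in ACT CAP. Its guides thus lay near the level of all genes in 3 groups (median beta of all genes -0.157 in EtOH, -0.139 in CAP, -0.136 in ACT and -0.133 in ACT CAP), and were enriched in ACT alone (difference 0.400, standard error 0.0799, scaled 6.77). MTFMT, which adds the formyl group, had a scaled difference of -0.50 and a beta difference of -0.0628 (95% interval -0.300 to 0.179). PDF itself had betas of -0.173 in EtOH, -0.0269 in CAP, 0.0348 in ACT and -0.0852 in ACT CAP and a scaled difference of 1.55, which did not pass and equalled the level of its chromosome, as described below. SHMT2, the mitochondrial enzyme that takes a carbon unit from serine, rose at 4.46 (betas -0.186 in EtOH, -0.0687 in CAP, 0.329 in ACT and -0.0700 in ACT CAP). In the folate path, MTHFS rose at 5.13 and the cytosolic MTHFD1 at 3.87.

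Of 19 genes in the list of mitochondrial transfer RNA modification 5 rose and none fell. The modifying enzymes among them were GTPBP3 (5.01) and TRMU (4.33), which act on the wobble base, and the pseudouridine synthase PUS1 (4.70). The others were SHMT2 and MTHFS, the folate genes given above, which do not modify transfer RNA themselves. The lowest was ALKBH1 at -1.87. Among translation factors the elongation factor GFM1 rose (4.42, betas -1.05 in EtOH, -0.705 in CAP, -0.538 in ACT and -1.15 in ACT CAP), as did RMND1 (3.82). Not a single one of 19 genes in the list of mitochondrial transfer RNA synthetases was called in either direction, although they were the most depleted translation list in EtOH (median beta -0.949). Their median was 0.22, from QRSL1 at -2.30 to IARS2 at 1.88. At an unadjusted p under 0.05 they held 1 lower and 0 higher. The 1 lower was QRSL1, a subunit of an amidotransferase and not itself a synthetase. Over all genes 4.33% were higher and 3.21% lower at that unadjusted p. None of 20 genes of mitochondrial DNA replication and transcription was called (median 0.85, TK2 highest at 3.41 and DNA2 lowest at -0.85), and 3 were higher at an unadjusted p under 0.05.

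**Figure D2:**
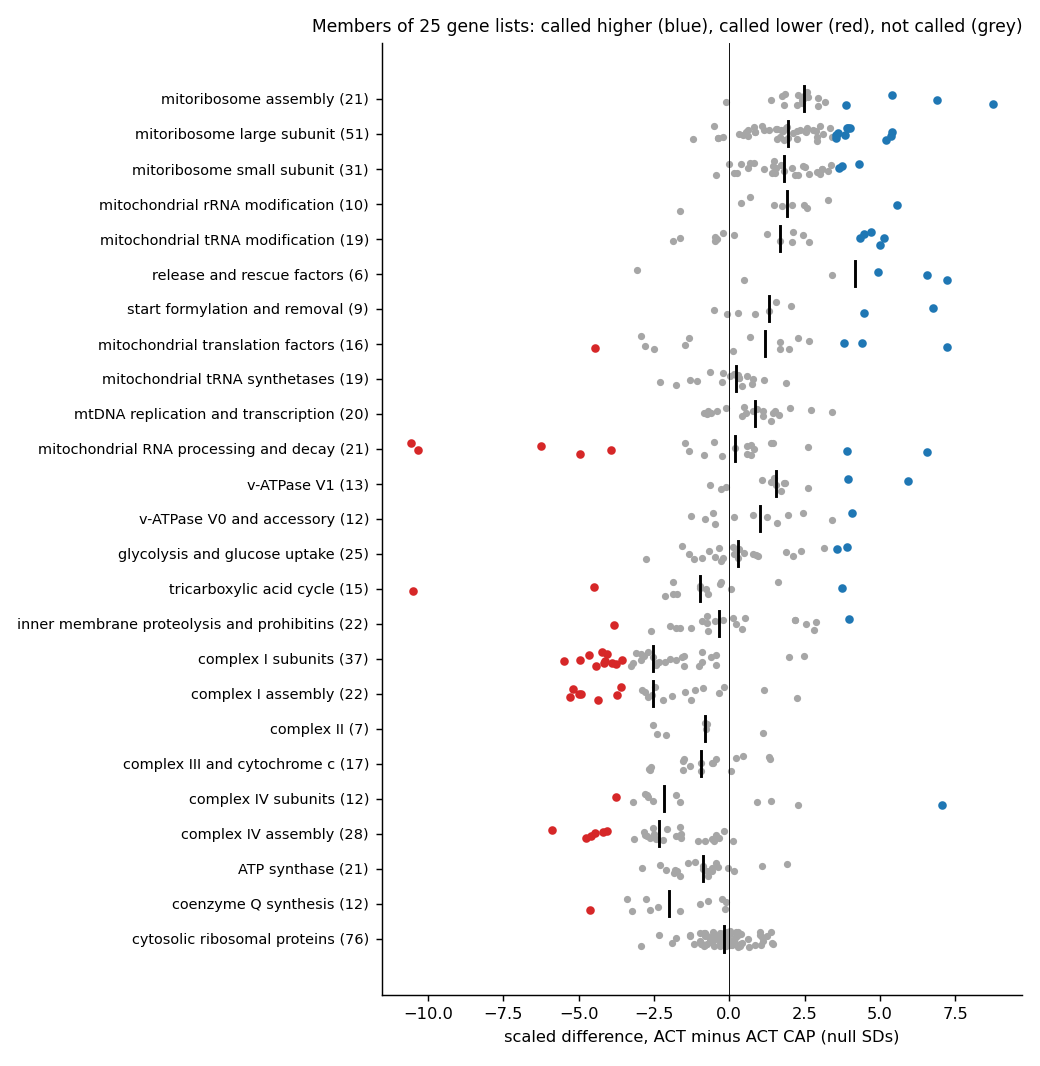
Each point is a gene's scaled difference, ACT minus ACT CAP, in units of the spread of all genes, in 25 of the lists with the number of members in brackets, and the bar is the list's median. Blue points were called higher and red points lower. Members of the ribosome lists lie mostly to the right of 0 and those of complexes I and IV to the left, while RNA processing reaches from -10.57 to 6.57.

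Mitochondrial RNA processing held both the lowest and some of the highest genes. Of 21 members 2 rose and 5 fell (median 0.18). FASTKD1, of a family that handles mitochondrial transcripts, had betas of -0.163 in EtOH, -0.278 in CAP, -1.14 in ACT and -0.181 in ACT CAP, a difference of -0.957 with a standard error of 0.122 (95% interval -1.13 to -0.778, scaled -10.57). PTCD2, a pentatricopeptide repeat protein of the same compartment, had betas of -0.0897 in EtOH, -0.210 in CAP, -1.04 in ACT and -0.175 in ACT CAP (difference -0.862, standard error 0.112, scaled -10.35). For both, guides in EtOH, CAP and ACT CAP lay near the level of all genes and only ACT stood apart. ACT alone stood apart for FASTKD3 too, at a lesser size, with -0.109 in EtOH, -0.122 in CAP, -0.530 in ACT and -0.0381 in ACT CAP (scaled -6.25). TBRG4, also called FASTKD4, fell at -4.96 and FASTKD5 at -3.91, and FASTK itself had 0.18. FASTKD2, whose known client is the large ribosomal RNA, had 2.63, on the other side of 0, and did not pass. REXO2, which degrades short RNA remnants, rose, with betas of -0.942 in EtOH, -0.468 in CAP, 0.240 in ACT and -0.439 in ACT CAP (difference 0.679, standard error 0.140, scaled 6.57), and so did GRSF1, which gathers transcripts in RNA granules (3.92). LRPPRC and SLIRP, partners that stabilise messenger RNA, had -1.49 and -1.33.

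Complex I carried the largest block of genes that fell. Of 37 subunits 11 fell, none rose and 35 lay below 0, and of 22 assembly factors 7 fell and none rose, each with a median of -2.52. NDUFA1, a small membrane subunit, had betas of -1.10 in EtOH, -0.574 in CAP, -1.36 in ACT and -0.598 in ACT CAP (difference -0.764, standard error 0.187, scaled -5.50). NDUFA9, at the base of the matrix arm, had betas of -0.741 in EtOH, -0.292 in CAP, -0.881 in ACT and -0.226 in ACT CAP (scaled -4.96). In each case EtOH and ACT lay low and CAP and ACT CAP lay higher. By position in the complex, 6 of 11 distal membrane arm subunits fell (median -3.57), 4 of 16 in the matrix arm (median -2.41) and 1 of 9 in the proximal membrane arm (median -1.98). In the distal arm these were NDUFB4 (-4.43), NDUFB8 (-4.15), NDUFB5 (-4.05), NDUFB7 (-3.88), NDUFB11 (-3.76) and NDUFB2 (-3.57), and NDUFB1 lay apart at 1.97. In the matrix arm they were NDUFA9, NDUFS3 (-4.66), NDUFA2 (-4.23) and NDUFA6 (-4.11). The highest subunit was NDUFAB1 at 2.48, the acyl carrier protein, which also serves fatty acid and iron-sulfur cluster synthesis. The arms were assigned by hand after the values had been seen, and no test compares them.

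Among complex I assembly factors, the 7 that fell act at different steps. TMEM126A had betas of -0.241 in EtOH, -0.143 in CAP, -0.561 in ACT and -0.140 in ACT CAP (scaled -5.29) and C17orf89 of -1.06 in EtOH, -0.712 in CAP, -1.33 in ACT and -0.618 in ACT CAP (scaled -5.20). TIMMDC1 fell at -4.98 and NDUFAF1 at -4.92, both of the membrane arm. FOXRED1 (-4.37), the iron-sulfur cluster carrier NUBPL (-3.71) and NDUFAF6 (-3.59) completed them. The highest factor was TMEM186 at 2.25.

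In complex IV most calls were assembly factors, of which 6 of 28 fell and 27 lay below 0 (median -2.33), the exception being TACO1 at 0.13. PET117 had betas of -0.998 in EtOH, -0.437 in CAP, -1.17 in ACT and -0.360 in ACT CAP (difference -0.815, standard error 0.187, scaled -5.87). SURF1 fell at -4.75, and the copper carriers SCO1 at -4.60 and COX17 at -4.05. COX14 and COX20, which attend the newly made core subunits, fell at -4.45 and -4.19. Of 12 structural subunits COX5B alone fell (-3.76), and 1 rose. That was COX5A, which joins the first core subunit early in assembly, with betas of -0.530 in EtOH, -0.178 in CAP, 0.251 in ACT and -0.365 in ACT CAP (difference 0.615, standard error 0.118, scaled 7.07). Its early partner COX4I1 had betas of -0.794 in EtOH, -0.295 in CAP, -0.228 in ACT and -0.519 in ACT CAP and did not pass (2.29).

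The other respiratory complexes gave fewer calls or none. None of 7 complex II genes, 17 genes of complex III and cytochrome c or 21 ATP synthase genes was called, with medians of -0.80, -0.93 and -0.86 and lowest members SDHD (-2.54), UQCR10 (-2.66) and ATP5H (-2.91). Their highest members were SDHC (1.13), UQCC2 (1.36) and C14orf2 (1.93). At an unadjusted p under 0.05 each of the 3 held 3 lower and 0 higher, against 3.21% lower and 4.33% higher over all genes. Each set thus held a larger share of lower genes than all genes did. All 12 coenzyme Q synthesis genes lay below 0 (median -2.00, COQ10A highest at -0.11), though COQ10A lay above 0 against 51 neighbouring genes, and COQ9 was the 1 that passed, with betas of -0.0539 in EtOH, 0.0653 in CAP, -0.384 in ACT and -0.0285 in ACT CAP (scaled -4.61). COQ6 and COQ3, at -3.39 and -3.23, passed once each chromosome was centred on its own median (-4.03 and -3.87).

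**Figure D3:**
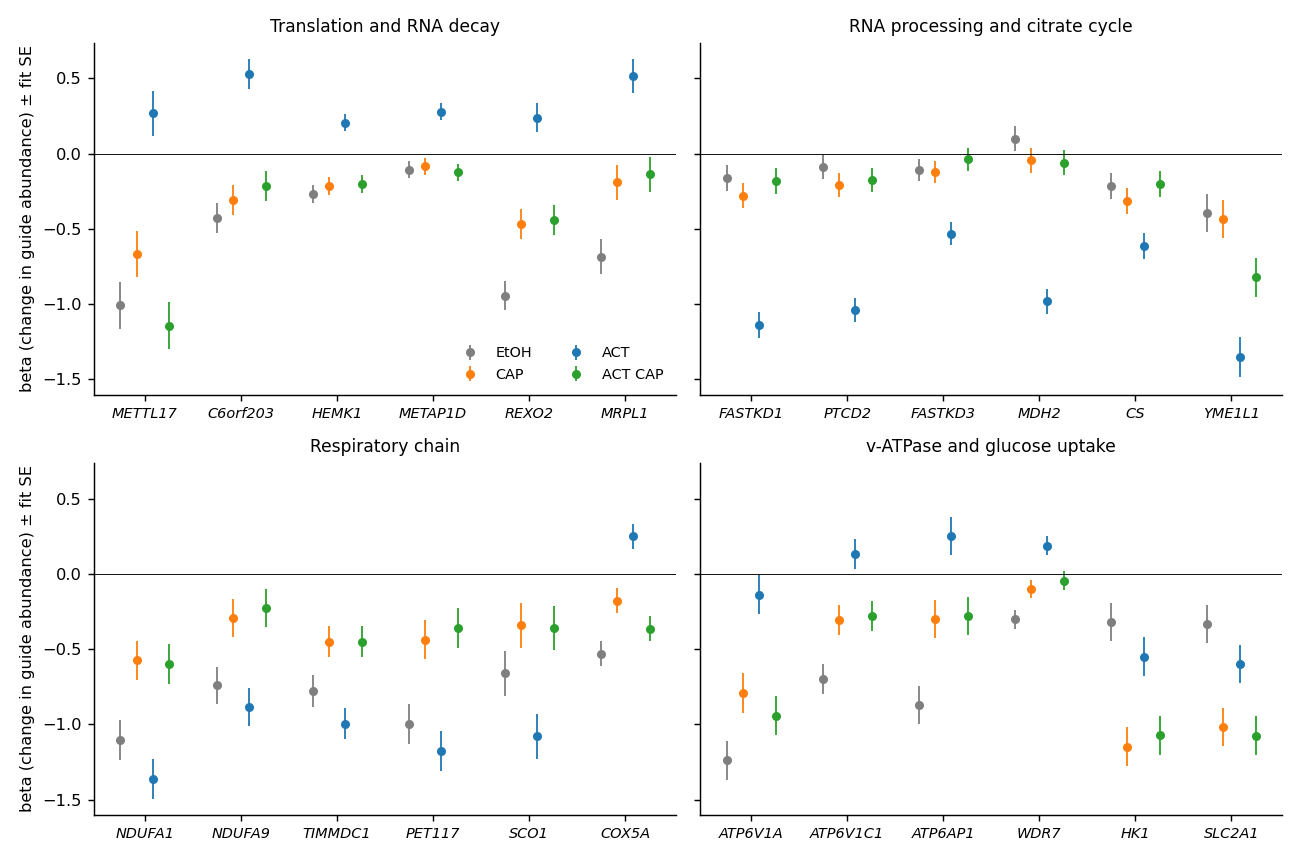
Points are betas of 24 genes in the 4 groups, with bars of 1 standard error of the fit on either side. ACT stands alone for FASTKD1, PTCD2 and MDH2, whereas for NDUFA9 and TIMMDC1 the groups with CAP lie above those without it, and for HK1 and SLC2A1 below.

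Central metabolism moved gene by gene rather than as lists. MDH2, the malate dehydrogenase of the citrate cycle, had betas of 0.100 in EtOH, -0.0424 in CAP, -0.980 in ACT and -0.0592 in ACT CAP, a difference of -0.921 with a standard error of 0.118 (95% interval -1.09 to -0.748, scaled -10.51). Its guides were lost in ACT and lay above the level of all genes in the other groups. Its cytosolic counterpart MDH1 had 0.68, with a beta difference of 0.0497 (95% interval -0.0968 to 0.199). The next enzyme of the cycle, citrate synthase (CS), fell too, with betas of -0.213 in EtOH, -0.312 in CAP, -0.616 in ACT and -0.204 in ACT CAP (scaled -4.51), while the succinyl-CoA ligase subunit SUCLG2 rose (3.76), so that of 15 cycle genes 2 fell and 1 rose (median -0.96). In mitochondrial fatty acid synthesis MCAT, which loads malonyl groups, rose with betas of -1.50 in EtOH, -0.934 in CAP, -0.334 in ACT and -1.07 in ACT CAP (scaled 5.40), and ACSF3, which makes malonyl-CoA, fell with -0.118 in EtOH, -0.0357 in CAP, -0.321 in ACT and -0.0377 in ACT CAP (scaled -4.20). HIBCH, a hydrolase of valine breakdown, had betas of -0.351 in EtOH, -0.202 in CAP, 0.417 in ACT and -0.154 in ACT CAP (scaled 5.16). The leucine aminopeptidase LAP3 had -0.169 in EtOH, -0.0836 in CAP, -0.0237 in ACT and -0.377 in ACT CAP (scaled 5.38), and here ACT CAP and not ACT stood apart.

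In the glycolysis and glucose uptake list, HK1 and SLC2A1 rose with another order of the groups. HK1, a hexokinase, which carries out the first step of glycolysis, had betas of -0.318 in EtOH, -1.15 in CAP, -0.550 in ACT and -1.07 in ACT CAP (scaled 3.90), and SLC2A1, the glucose transporter, of -0.331 in EtOH, -1.02 in CAP, -0.600 in ACT and -1.07 in ACT CAP (scaled 3.58). Both were most depleted in the 2 groups with CAP and lay lower in ACT than in EtOH. HK2, a second hexokinase for that step, lay on the other side of 0 as the lowest member of the list, with betas of -0.356 in EtOH, -0.859 in CAP, -0.877 in ACT and -0.499 in ACT CAP (scaled -2.77, not called), so that ACT and CAP lay low and EtOH and ACT CAP higher. The pyruvate dehydrogenase subunit PDHB rose at 3.99, with 0.279 in EtOH, -0.000841 in CAP, 0.270 in ACT and -0.0728 in ACT CAP. Of 25 glycolysis and glucose uptake genes the other 23 were not called, 10 of the 25 lay below 0, and the median was 0.27.

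In the inner membrane quality control list 1 of 22 genes rose and 1 fell. The protease YME1L1 had betas of -0.394 in EtOH, -0.434 in CAP, -1.35 in ACT and -0.821 in ACT CAP (difference -0.531, standard error 0.186, scaled -3.84), so that its loss cost more in both groups with ACT than in both without. OMA1, the stress-activated protease that cleaves OPA1, had betas of -0.105 in EtOH, 0.0249 in CAP, 0.356 in ACT and 0.0251 in ACT CAP and did not pass (2.89). OPA1, the fusion protein cut by both, had -1.01 and a beta difference of -0.145 (95% interval -0.421 to 0.135). CLPP, the matrix protease, rose at 3.99. The import channel protein TIMM17A fell at -3.90. No gene of the integrated stress response list was called among 21 (2 higher and 1 lower at an unadjusted p under 0.05), from IMPACT at -2.00 to OMA1, and no gene of the cristae list among 12 (0 at that p), from OPA1 to APOOL at 1.96.

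The vacuolar proton pump lay on the side of the ribosome. Of 25 v-ATPase subunits 3 rose, none fell and 18 lay above 0 (median 1.50). Against the standard normal curve, or at an adjusted p of 0.01, 1 subunit rose. ATP6V1A, the catalytic subunit, had betas of -1.24 in EtOH, -0.791 in CAP, -0.137 in ACT and -0.942 in ACT CAP (difference 0.805, standard error 0.184, scaled 5.92). ATP6V1C1, of the peripheral stalk, had -0.698 in EtOH, -0.308 in CAP, 0.131 in ACT and -0.280 in ACT CAP (scaled 3.93), and the accessory protein ATP6AP1 had -0.871 in EtOH, -0.302 in CAP, 0.253 in ACT and -0.282 in ACT CAP (scaled 4.09). In all 3, EtOH was lowest and ACT highest. The lowest members were subunits with tissue-restricted or alternative forms, TCIRG1 at -1.28 and ATP6V1C2 at -0.63. WDR7, of the complex that reassembles the pump, rose at 3.61, and OXR1 was lowest of that list at -1.77. In nutrient signalling, NPRL3 of the GATOR1 complex rose at 3.58, with 0.277 in EtOH, -0.0165 in CAP, 0.173 in ACT and -0.156 in ACT CAP, and did not pass with its chromosome centred (2.16).

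No general growth gene was called. Of 141 genes of the cytosolic ribosome, proteasome and spliceosome 0 were called, from RPS28 at -2.92 to U2AF1 at 1.63 (median -0.204), and the slope of beta in ACT on beta in ACT CAP through them was 0.930. Of 374 olfactory receptors, genes of smell that are silent in most cells, 0 were called (median -0.14, from OR10Q1 at -3.33 to OR4N2 at 3.002). At an unadjusted p under 0.05 the first set held 0 higher and 3 lower, and the receptors 3 higher and 14 lower.

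The same drug was also added without ACT. EtOH minus CAP was computed in the same way and shares no sample with ACT minus ACT CAP, and its values too are relative to the median of all genes. It called 12 genes higher (0.0628%) and 36 lower (0.188%), 48 in all (0.251%). Over all 19112 genes the scaled differences of the 2 comparisons were nearly unrelated (Pearson r -0.0806, Spearman rho -0.0693). Within the 154 oxidative phosphorylation genes r was 0.275 (rho 0.342). Within the 82 mitochondrial ribosomal proteins r was -0.395 (rho -0.381). These are all across genes of the same fit, which are not independent replicates. The difference between the 2 differences, joining the errors of all 4 groups, was then tested across all genes, with 98 called higher (0.513%) and 19 lower (0.0994%), 117 in all (0.612%). It uses the ACT and ACT CAP values again, so genes already called for their difference lean towards passing it.

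Counts in this test differed between oxidative phosphorylation and translation. Over all 175 translation genes, called or not, 27 passed it higher and 0 lower, and over all 154 oxidative phosphorylation genes 2 passed higher and 0 lower. In EtOH minus CAP 150 of the 175 (85.7%) and 120 of the 154 (77.9%) lay below 0. The test subtracts EtOH minus CAP, which moves genes that rose towards passing and genes that fell away from it. The counts of the 2 sets therefore lean apart by construction. The 141 general growth genes had median betas of -0.419 in EtOH, -0.346 in CAP, -0.391 in ACT and -0.353 in ACT CAP. The part of growth rate in these counts was not tested. The median beta of the 175 was -0.686 in EtOH, -0.526 in CAP, -0.380 in ACT and -0.588 in ACT CAP. Beta was above 0 for 25 of the 175 in ACT and for 1 in EtOH. Over all 19112 genes it was above 0 for 2567 in ACT and 1393 in EtOH, so in ACT the 2 shares were close. The median beta of the 154 was -0.435 in EtOH, -0.285 in CAP, -0.543 in ACT and -0.327 in ACT CAP. Of the 26 oxidative phosphorylation genes that fell, 25 also lay below 0 in EtOH minus CAP, 2 of them called there, and 0 passed the test of the difference between differences (-3.41 to -0.05, with 8 lower at an unadjusted p under 0.05). For NDUFB7 the values were -3.94 without ACT and -3.88 with it, and for NDUFA1 -3.71 and -5.50. A test that these genes missed does not show that CAP acted alike with and without ACT. Of the 29 translation genes that rose, 26 lay below 0 in EtOH minus CAP, and 21 passed the test of the difference. The 3 v-ATPase subunits that rose all passed as well (5.15 to 6.24), with EtOH minus CAP of -3.11 for ATP6V1A, -3.56 for ATP6V1C1 and -4.17 for ATP6AP1.

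**Figure D4:**
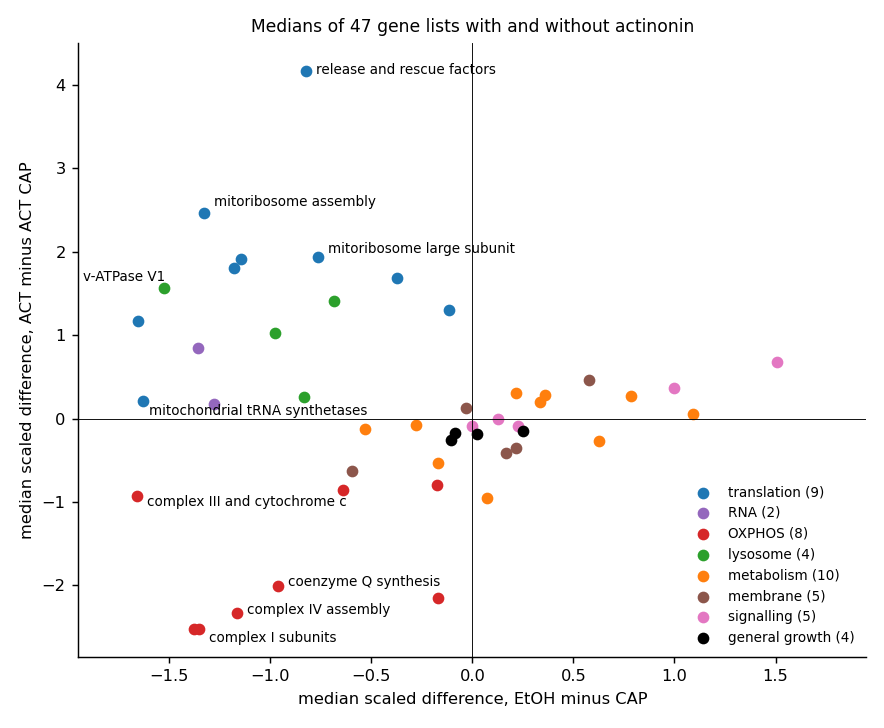
Each point is 1 of 47 gene lists, placed by the median scaled difference of its members in EtOH minus CAP and in ACT minus ACT CAP. Translation lists lie at the upper left and the lists of complexes I and IV at the lower left, so adding CAP went with opposite signs for ribosome genes and with 1 sign for complex I and IV genes.

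Of the 55 genes that fell, 12 passed the test of the difference, 6 in a list and 6 in none, with 3 of the latter on chromosome 18. Those in a list were FASTKD1, PTCD2, FASTKD3, MDH2, CS and TIMM17A. They lay above 0 in EtOH minus CAP, at 1.61, 1.79, 0.44, 1.99, 1.40 and 1.40. Among genes that rose, HK1 and SLC2A1 did not pass the test of the difference (-1.76 and -1.27) and were called higher in EtOH minus CAP too (6.71 and 5.63). HK2 was called higher in EtOH minus CAP as well (4.14) and passed the test of the difference lower (-4.70). PDHB and NPRL3, which rose, had 3.65 and 3.58 there, short of the threshold, and 0.35 and 0.12 for the difference. The test can also pass through the side without ACT. The deadenylase PDE12 had betas of -1.32 in EtOH, -0.377 in CAP, -0.332 in ACT and -0.402 in ACT CAP, with 0.59 for ACT minus ACT CAP, -7.66 for EtOH minus CAP and 5.58 for their difference.

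Position on the chromosome moved with the difference. All but 102 of the 19112 symbols were placed on a chromosome through the RefSeq gene table of GRCh38.p14. The 793 genes of chromosome 16 had a median scaled difference of 1.54, and 91.0% of them lay above 0. The medians of the 22 chromosomes other than 16 and 18 ran from -0.421 to 0.419, with 32.7% to 68.8% of genes above 0. Along the gene order of chromosome 16 the running median of 51 genes stayed between 0.917 and 2.28, and so the shift ran from end to end. Median beta on chromosome 16 was -0.147 in EtOH, -0.0726 in CAP, 0.0471 in ACT and -0.0765 in ACT CAP, against -0.157, -0.141, -0.140 and -0.134 for the 18319 other genes. Only ACT lay above 0. Chromosome 18 lay the other way, with 261 genes at a median of -0.876, 17.2% of them above 0 and running medians of -1.25 to -0.676. In EtOH minus CAP the medians of chromosomes 16 and 18 were -0.729 and 0.230. Copy number was not analysed, the replicates behind these pooled values were not seen, and the part of either in the shift was not tested.

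**Figure D5:**
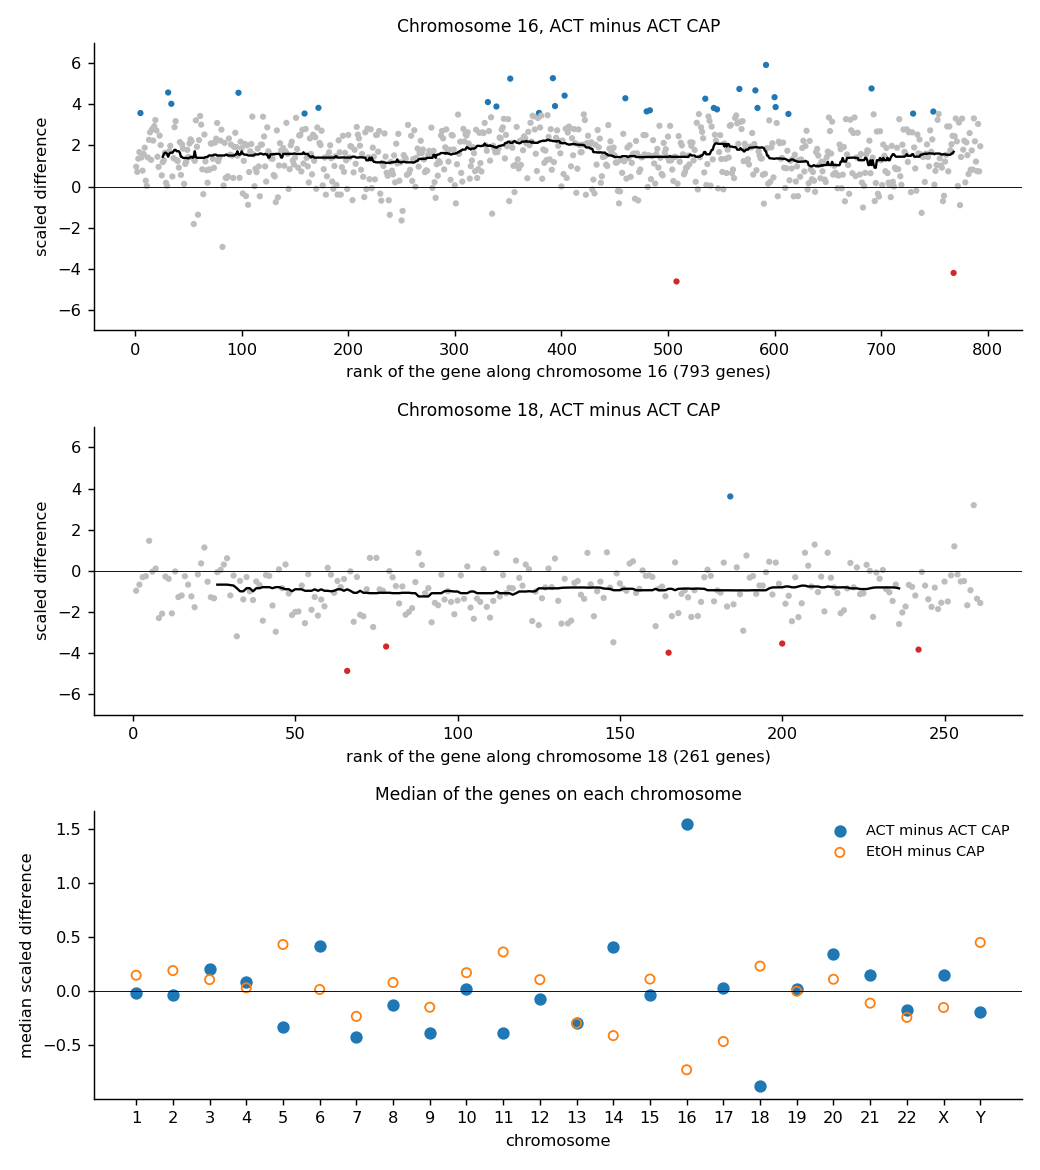
In the upper panels each point is a gene's scaled difference, ACT minus ACT CAP, against its rank along chromosomes 16 and 18, with genes called higher in blue and lower in red, and the line is the running median of 51 genes. The lower panel gives each chromosome's median for ACT minus ACT CAP (filled) and EtOH minus CAP (open), where chromosome 16 stands at 1.54 and chromosome 18 at -0.876.

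Of the 102 genes called higher, 29 were on chromosome 16, which holds 4.15% of the genes, and 27 of those 29 stood in no list. After each chromosome was centred on its own median 80 genes were higher (0.419%) and 54 lower (0.283%), and 72 of the 102 and 45 of the 55 were called again. Of the 29 on chromosome 16, 18 had also passed the test of the difference between differences. With chromosomes centred that test called 79 genes higher and 20 lower. Of its 98 higher and 19 lower calls without centring, 63 and 12 were called again. In ACT minus ACT CAP, 3 of the 29 were called again after centring. These were EDC4, which acts in the removal of messenger RNA caps (5.92 before and 4.64 after), PRR14 and MAZ. PRR14 is a protein of the nuclear lamina (5.27 and 3.96), and MAZ is a transcription factor (5.25 and 3.94). Against the running median of 51 neighbouring genes, EDC4 and VAT1L remained of the 29. Besides DDX28 and NPRL3, the mitochondrial transport GTPase RHOT2 lost its call (4.58 and 3.22). PDF, the target of actinonin, lies on the same chromosome and moved from 1.55 to 0.01, and COX4I1 from 2.29 to 0.79. Genes of chromosome 16 that fell did so against its level. COQ9 moved from -4.61 to -6.54, ACSF3 from -4.20 to -6.10, and the complex I subunit NDUFB10 from -2.94 to -4.75, which then passed. On chromosome 18, 5 genes had been called lower and 1 was after centring. ANKRD30B, among the 20 lowest, had -4.87 before and -4.24 after, and the ribosome assembly factor RBFA, on that chromosome, moved from 3.19 to 4.32 and passed.

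The counts of the lists changed little with this centring. With chromosomes centred, 29 translation genes rose, 27 of them among the 29 called before, and 28 oxidative phosphorylation genes fell, 25 of them among the 26. Members lost were MRPL52 (3.55 before and 3.33 after) and DDX28 from translation and NDUFB2 (-3.57 and -3.35) from complex I. The 20 lowest genes also held TRIM77 (-4.68), of the tripartite motif family, and the chaperone HSPA8 (-4.60). Of the 157 called genes, 50 had a z value in ACT or ACT CAP that the deposited table stores as a date and that was recomputed. The recomputed z values, 573 in ACT and 218 in ACT CAP, were all positive, at 1 or above. Leaving such genes out thus removes genes with a positive beta by construction, more of them in ACT. Without them 55 genes were called higher, 52 of which had been called before, and the same 55 were called lower. The fall in higher calls follows from that choice and is no check on them.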

How the data were processed

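The screen had 12 samples of HEK293 cells, 3 independent replicates in each of 4 groups that were taken from the deposited labels, and guides were sequenced on day 15. Per the labels, the authors used MAGeCK on the sequenced guides (version not given in the sources used here). They deposited a single table of 19112 genes and 76441 sgRNAs with a beta score, a z score and a Wald p-value per gene and group, pooled over replicates. The deposited sgRNA counts per gene are numbers of guides, not reads. Reads per sample were not used here, so the fit's standard error, beta divided by z, is the only measure of precision (joined for ACT and ACT CAP, 5th to 95th percentile 0.0740 to 0.223). With values of single replicates not used, p-values carry only the error that the fit gives. False discovery rates and permutation p-values in the same table were left unused.

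Of 76448 z scores 1146 stood as dates, 791 of them in ACT and ACT CAP, and were rebuilt from the deposited Wald p-value, with the sign that beta had. On intact values between 1 and 4 this came within 6.4e-05 of the deposited z. The beta of TSC2 in ACT also stood as a date and was set from its recomputed z and the standard errors of the other groups.

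The difference of 2 betas was divided by the root of their summed squared standard errors, centred on the median and scaled by 1.4826 times the median absolute deviation of all genes, with a 2-sided normal p and Benjamini-Hochberg adjustment over 19112 genes at 0.05. The covariance of the coefficients is not in the table, and the scaling stands in for it. Single genes are given by this scaled difference and not by a p. Genes were placed on chromosomes by symbol or synonym (19010 of 19112) with the RefSeq table of GRCh38.p14. Their start positions in it were used only to order them along each chromosome.

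The 47 gene lists, 1221 genes in all, and the genes compared were chosen with earlier results of these data known. Genes named are the 20 per direction with the largest scaled difference among those called, called members of the lists, the highest and lowest member of each list described by its counts, and MTRF1, MTRF1L, C12orf65, ICT1, HEMK1, PDF, MTFMT, METAP1D, OMA1, OPA1, YME1L1 and ATP6AP1. FASTK, FASTKD2, LRPPRC, SLIRP, NDUFB1, NDUFB10, COQ3, COQ6, COX4I1, MDH1, PDE12, RBFA, RHOT2, VAT1L, the genes next to the threshold and those of the other observations were added after their values were seen. Alternatives were a threshold of 0.01 on the adjusted p, a standard normal null, a z difference of 3, removal of the running median of 501 genes over beta, genes with exactly 4 sgRNAs, beta not divided by its error, z scaled per group, the spread set within 20 bins of the error, and no repaired genes. Centring by chromosome or by 51 neighbouring genes and leaving out chromosome 16 were added after seeing the data. The scripts were tested on simulated data. The work was done in Python 3.11.15 with scipy 1.17.1, pandas 2.3.3, numpy 2.4.6 and, for plots, matplotlib 3.10.9.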

Additional observations from a re-analysis of the deposited data

Results flagged for a closer look

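Genes in this paragraph passed the test of the difference between ACT minus ACT CAP and EtOH minus CAP, the effect of CAP with and without ACT, and each is given by its scaled value, positive where the loss weighed less in ACT alone than the other groups would give. The same ACT and ACT CAP values had chosen most of these genes. Chromosomes were not centred for these values. With centring, 63 of the 98 higher calls and 12 of the 19 lower calls of this test remained. DDX28 and COX4I1 lie on chromosome 16, as do the genes named for it below. Among genes of the mitochondrial ribosome and its assembly the value was 7.40 for METTL17, 5.90 for GTPBP8, 4.63 for NOA1, 4.20 for DDX28, 3.83 for RBFA, 6.07 for GTPBP6, 6.38 for MRPL1, 5.43 for MRPL17, 4.04 for MRPL9, 3.97 for MRPL27, 3.96 for MRPL52, 4.64 for PTCD3 and 3.70 for MRPS33. Among the other translation genes it was 5.67 for C6orf203, 5.06 for HEMK1, 3.94 for C12orf65, 4.82 for METAP1D, 4.69 for RPUSD3, 4.52 for PUS1, 4.08 for GTPBP3, 3.84 for SHMT2, 4.63 for GFM1 and 3.98 for RMND1. In RNA handling it was 7.60 for REXO2, 3.83 for GRSF1, 5.58 for PDE12, -8.46 for FASTKD1, -8.42 for PTCD2 and -4.64 for FASTKD3. In the respiratory chain it was 7.58 for COX5A and 4.14 for COX4I1. In the proton pump and its assembly it was 6.24 for ATP6V1A, 5.67 for ATP6AP1, 5.15 for ATP6V1C1 and 4.52 for WDR7. In metabolism and import it was -8.69 for MDH2, -4.08 for CS, -4.70 for HK2, 6.51 for MCAT, 4.37 for HIBCH, 3.91 for MTHFD1, 3.76 for SLC25A1, -3.65 for TIMM17A and 3.77 for TOMM7. Of other genes on chromosome 16, whose level as a whole lay higher in ACT, it was 5.02 for EDC4, 5.26 for PRR14, 5.12 for MAZ, 3.98 for RHOT2 and 5.94 for VAT1L. It was 4.49 for LAP3, -3.93 for ANKRD30B, -3.63 for TRIM77 and 4.80 for VHL. PDE12, COX4I1, RBFA and HK2 were not called in ACT minus ACT CAP. Their scaled EtOH minus CAP was -7.66, -3.75, -2.36 and 4.14, called for PDE12 and HK2. Of the 102 genes called higher in ACT minus ACT CAP, 6 were called lower in EtOH minus CAP. Among them were REXO2 (-4.47), ATP6AP1 (-4.17), MCAT (-4.05) and COX5A (-3.91). Part of the value of such genes thus comes from the side without ACT. No value of a single replicate was used, so no sample could be set against its group.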

How the results depend on the processing

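No paired analysis was possible because the table holds 1 pooled value per gene and group, although the labels number the replicates of every group from 1 to 3, and for the same reason no replicate could be left out. Of 2017 values of 156 named genes under the alternatives, 1711 kept their direction and side of the threshold, 253 lost their call, 47 gained one and 6 changed sign. The 6 belonged to MTRF1L (-0.0998 against 51 neighbouring genes), COQ10A (0.369 against those neighbours) and WBSCR16 (0.0497 without the running median over beta, 0.499 with z scaled per group, 0.342 with chromosomes centred and 0.755 against neighbours), none of which was called under any setting. Against a standard normal null, ACT minus ACT CAP had 11 genes higher and 6 lower, EtOH minus CAP 1 and 1, and the difference between them 18 and 3, with 6 translation genes and 1 v-ATPase subunit higher and 2 oxidative phosphorylation genes lower. At an adjusted p of 0.01, 44 genes were higher and 29 lower, including 18 translation genes, 1 v-ATPase subunit and 17 oxidative phosphorylation genes. A z difference of 3 gave 239 higher and 127 lower, with 44 translation genes. The beta difference not divided by its error gave 217 higher and 161 lower, with 69 translation genes and 7 v-ATPase subunits higher and 59 oxidative phosphorylation genes lower, and raised the medians of the large subunit, the small subunit and ribosome assembly to 3.82, 3.01 and 4.06. With z scaled per group 36 genes were lower. Without genes that had a value stored as a date, 55 genes and 15 translation genes were higher, of fewer genes tested. Those values were all positive, so this setting removes genes with a positive beta by construction. Without the running median over beta, EtOH minus CAP had 19 genes lower. Other counts stayed within 1.5 times the reported one. The standard normal null, which takes the fit's errors at face value, is the setting that ended most calls.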

Other observations

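The genes below were called, stand in no list except CS, and were picked after their values were seen. The other members of their paths were not counted, so no path as a whole is described. HIBCH (5.16) and ECHS1 (4.04, betas -0.250 in EtOH, -0.249 in CAP, 0.164 in ACT and -0.187 in ACT CAP) both act in valine breakdown, and both rose. SLC25A1, the citrate carrier of the inner membrane, rose with betas of -0.313 in EtOH, -0.214 in CAP, 0.356 in ACT and -0.240 in ACT CAP (scaled 4.84), while CS, which makes citrate, fell (-4.51). Both MRS2, a magnesium channel of the inner membrane, and LETM1, which exchanges cations for protons, rose at 4.01 (betas -0.0519 in EtOH, -0.0700 in CAP, 0.391 in ACT and -0.00270 in ACT CAP) and 3.77 (betas -0.613 in EtOH, -0.629 in CAP, -0.180 in ACT and -0.689 in ACT CAP). The pseudouridine synthase PUSL1 rose at 4.99. TOMM7, of the outer membrane import channel, had betas of -0.207 in EtOH, -0.130 in CAP, 0.256 in ACT and -0.104 in ACT CAP (scaled 4.65).

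Of genes that act in the cytosol, PAN3 rose at 3.90 and CNOT8 at 4.44, both of which belong to deadenylase complexes. VHL, the ubiquitin ligase subunit that limits the hypoxia response, had betas of -0.518 in EtOH, -0.169 in CAP, 0.436 in ACT and -0.0295 in ACT CAP (scaled 4.09). SBDS, which readies the cytosolic large ribosomal subunit, was depleted in all groups, at -1.74 in EtOH, -1.91 in CAP, -0.821 in ACT and -1.72 in ACT CAP (scaled 4.85). Of genes that fell, RTN4IP1 (-3.99) and PYURF (-3.86) serve coenzyme Q or its enzymes, and SFXN4 (-4.19) serves iron-sulfur clusters and complex I. All of these were called again with chromosomes centred.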
